A study of Mus musculus with 21 samples.

Results

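This report describes 10 genes of axons and neurons in the mouse ventral hypothalamus (VH), of which *Kif5b* is also made in most other cells. They are the neurofilament subunits *Nefl*, *Nefm*, *Nefh* and *Ina*, the kinesin-1 heavy chains *Kif5a*, *Kif5b* and *Kif5c*, and *Lynx1*, *Hpca* and *Nxph4*. The genes were chosen by their symbols because several of them differ between RC NoDS and HFD → RC, so those values chose the members and are given below as a description only. All 10 were found among the 21654 genes of the count table, and all 10 averaged at least 50 reads, as did 12768 genes in all.

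Gene expression was measured by polyA RNA-seq in male C57BL/6J mice that were 12 to 14 weeks old when acquired. Mice eating regular chow (RC) or high-fat diet (HFD) were either kept on that diet (No Diet Switch, NoDS) or given the other diet (Diet Switch, DS), and VH punches, labelled circumventricular hypothalamus, were taken on day 7 after the DS at ZT6, following 3 h of forced wakefulness. Each library pooled mRNA from 2 mice of a group, so a value is an average of 2 animals. The groups were RC NoDS (chow throughout, n = 5), RC → HFD (chow, then HFD, n = 6), HFD → RC (HFD, then chow, n = 5) and HFD NoDS (HFD throughout, n = 5). The library totals lay between 16380781 and 16390598 reads, because the authors had re-sampled the libraries to a common depth. The complexity of the libraries differed at the same total.

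Neurofilaments are the intermediate filaments of neurons. The light, medium and heavy subunits assemble with alpha-internexin into long polymers that fill the axon and are linked to its calibre, and they are made in the cell body and carried outward. Kinesin-1 motors walk along microtubules towards the axon terminal with vesicles, mitochondria and other cargo, and each motor is built on a KIF5 heavy chain. KIF5A and KIF5C are enriched in neurons, whereas KIF5B is made in most cell types. In the VH these genes are expressed by neurons of several nuclei at once, and in bulk tissue fewer cells of a type and less RNA per cell cannot be told apart.

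Levels between genes were compared as CPM (counts scaled to a common library size) per kilobase of exon. *Kif5a* had the highest level at 284 ± 44.6 (SD, n = 21), followed by *Kif5c* at 86.4 ± 5.13. *Lynx1* at 70 ± 9.73 and *Ina* at 66.7 ± 6.66 came next and did not differ beyond their spread. *Nefl* (39.1 ± 6.52), *Hpca* (34.9 ± 6.65) and *Kif5b* (34 ± 2.39) also lay within each other's spread, as did *Nefm* (20.7 ± 4.59) and *Nefh* (20 ± 2.39). These values pool the 4 groups, and some orders differed within a group. In RC NoDS *Hpca* was at 28.3 ± 1.2 and *Kif5b* at 34 ± 2.5, and in HFD → RC they were at 41.2 ± 7.88 and 33.7 ± 1.81. *Lynx1* was at 58.5 ± 5.76 in RC NoDS, where *Ina* was at 60.5 ± 3.14. *Nxph4* was lowest at 3.6 ± 5.19, with an SD above its mean.

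*Kif5a* (ENSMUSG00000074657, chr10:126662755-126700136 on the minus strand of NCBIM37) encodes the neuronal heavy chain. RC NoDS libraries held 21755, 25455, 28245, 23644 and 28748 reads in replicates 1, 2, 3, 5 and 6. The RC → HFD libraries ran from 30455 to 38574 with a median of 32914.5, so that every one lay above every RC NoDS library. HFD → RC libraries held 33165, 34435, 40201, 27463 and 35416 reads, and those of HFD NoDS 31800, 36193, 30372, 28882 and 29276. RC NoDS was thus the lowest group, and its highest library lay below every HFD NoDS library and above 1 HFD → RC library, replicate 16. The other heavy chains differed less from RC NoDS in the other 3 groups. *Kif5c* (ENSMUSG00000026764), also enriched in neurons, averaged 9761 ± 287 reads in RC NoDS, 10607 ± 471 in RC → HFD, 10269 ± 443 in HFD → RC and 9704 ± 533 in HFD NoDS, and *Kif5b* (ENSMUSG00000006740) lay between 3404 and 4743 reads in the 21 libraries with overlap between all groups.

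As a share of the 3 heavy chains per kilobase, *Kif5a* made up 66.2% ± 2.76 (SD, n = 5) in RC NoDS. It made up 70.7% ± 1.75 (n = 6) after RC → HFD, 71.7% ± 2.84 (n = 5) after HFD → RC and 70.9% ± 2.81 (n = 5) with HFD NoDS. The share of *Kif5b* was 9.9% ± 1.09 in RC NoDS, 8.06% ± 0.68 in RC → HFD, 7.85% ± 0.956 in HFD → RC and 8.35% ± 1.1 in HFD NoDS. These shares were not tested.

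Among the neurofilament subunits, *Nefm* (ENSMUSG00000022054, the medium chain) held 1278, 1743, 1663, 1585 and 1524 reads in the RC NoDS libraries. RC → HFD ran from 1803 to 2638 with a median of 1973.5, above all RC NoDS libraries. In HFD → RC the counts were 1922, 2635, 2639, 1732 and 2335, and in HFD NoDS 1831, 2692, 1917, 1622 and 1530. HFD NoDS was spread widely, with replicate 20 holding the highest *Nefm* count of all 21 libraries. *Nefh* (ENSMUSG00000020396, the heavy chain) held 1099, 1145, 1032, 1289 and 1249 reads in RC NoDS and 1440, 1453, 1435, 1435 and 1566 in HFD → RC. Its RC → HFD libraries ran from 1248 to 1448 around a median of 1357.5, and HFD NoDS held 1319, 1414, 1299, 1116 and 1083 reads. HFD → RC was the tightest group and lay above every HFD NoDS library.

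*Nefl* (ENSMUSG00000022055, the light chain) held 2011, 2173, 2044, 1648 and 1711 reads in RC NoDS, and 2047 to 2916 with a median of 2367 in RC → HFD. HFD → RC held 2113, 1969, 2869, 2298 and 2453 reads, and HFD NoDS 2050, 1780, 2474, 1823 and 1758. All groups overlapped. *Ina* (ENSMUSG00000034336, alpha-internexin) held 2997, 3293, 3389, 3305 and 3276 reads in RC NoDS, 3364 to 4175 with a median of 3823.5 in RC → HFD, 3790, 3544, 3924, 3403 and 4015 in HFD → RC, and 3765, 3365, 3266, 3317 and 3066 in HFD NoDS. For *Ina* every RC NoDS library lay below every HFD → RC library, and the other pairs of groups overlapped in reads. In CPM scaled with TMM factors, RC NoDS (highest 204.9) also lay below RC → HFD (lowest 207.7). Per kilobase, *Ina* made up 47.1% ± 1.46 (SD, n = 5) of the 4 subunits in RC NoDS and 44.4% ± 1.79 (n = 5) in HFD → RC. *Nefm* made up 12.6% ± 0.97 and 14.9% ± 2.25, *Nefl* 26.6% ± 2.78 and 26.5% ± 2.49, and *Nefh* 13.7% ± 1.49 and 14.2% ± 0.979. In RC → HFD (n = 6) the shares were 45.4% ± 2.16 for *Ina*, 13.9% ± 1.12 for *Nefm*, 27.4% ± 1.37 for *Nefl* and 13.3% ± 1.3 for *Nefh*, and in HFD NoDS (n = 5) 45.8% ± 2.85, 14.6% ± 2.78, 25.8% ± 3.04 and 13.8% ± 0.638. These shares were not tested.

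*Lynx1* (ENSMUSG00000022594) encodes a membrane-anchored prototoxin that modulates nicotinic acetylcholine receptors. It held 3535, 3848, 4361, 3428 and 4007 reads in RC NoDS, and 4088 to 5346 with a median of 4735 in RC → HFD. The HFD → RC libraries held 5110, 4768, 5595, 4697 and 4405 reads, and HFD NoDS 4725, 5164, 4597, 3918 and 4154. RC NoDS replicate 3 alone reached into the range of RC → HFD. *Hpca* (ENSMUSG00000028785) encodes hippocalcin, a calcium sensor of neurons. Its RC NoDS libraries were tight at 1283, 1416, 1406, 1361 and 1389 reads and lay below all of RC → HFD, which ran from 1524 to 1935 with a median of 1721. HFD → RC held 2571, 1717, 1979, 1599 and 1935 reads, and HFD NoDS 1611, 1955, 1289, 1380 and 1596, so that HFD NoDS reached down into RC NoDS.

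*Nxph4* (ENSMUSG00000040258) encodes a secreted protein of the neurexophilin family and was the least abundant member. RC NoDS libraries held 25, 39, 38, 57 and 46 reads, RC → HFD 26 to 101 with a median of 54, and HFD NoDS 61, 112, 98, 40 and 58. In HFD → RC the counts were 680, 104, 24, 119 and 243. The group therefore held both the highest and the lowest *Nxph4* count of the 21 libraries, and replicate 13 alone held more reads than the other 4 HFD → RC libraries together.

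**Figure D1:**
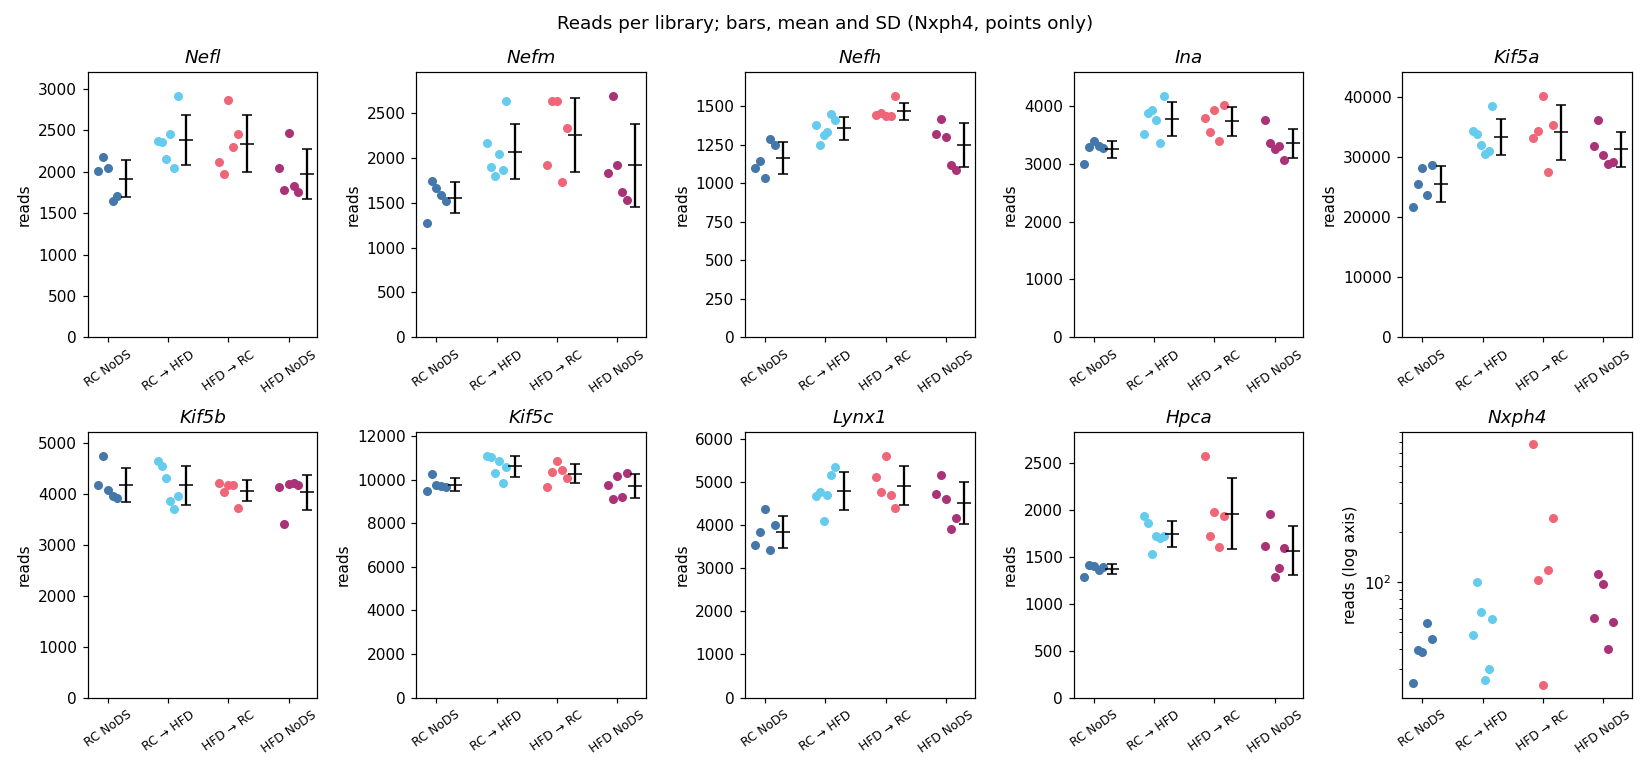
Reads per library (y axis) of the 10 genes in the 4 diet groups (x axis), with a point for each of the 21 libraries and bars for the mean and SD beside them. The *Nxph4* panel has a log axis and points only. *Kif5a* in RC NoDS lies at 21755 to 28748 reads, below every RC → HFD library, and *Nxph4* in HFD → RC runs from 24 to 680 reads.

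The contrast that chose the members was RC NoDS v HFD → RC. Its log2 fold change (HFD → RC over RC NoDS) was 0.44 (SE 0.0888) for *Kif5a*, 0.56 (SE 0.139) for *Nefm*, 0.36 (SE 0.0857) for *Nefh*, 0.38 (SE 0.0871) for *Lynx1*, 0.54 (SE 0.11) for *Hpca* and 2.53 (SE 0.54) for *Nxph4*. For the remaining members it was 0.31 for *Nefl*, 0.22 for *Ina*, 0.10 for *Kif5c* and -0.01 for *Kif5b*. Here 6 of the 10 members and 0.282% of all genes had an adjusted p under the threshold of 0.15. All HFD → RC libraries lay above all RC NoDS libraries for 4 members, and for 0.54% of genes. Without HFD → RC replicate 13 *Nxph4* was at 1.59. Nothing is read from these counts, because the contrast served to pick the genes.

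RC → HFD v HFD NoDS was the only pair with both groups outside that contrast. By edgeR, 0 of the 10 members and 0.0157% of all genes passed, and DESeq2, limma-voom and limma-trend also called 0 members. No member was without overlap between these groups, against 0.744% of genes. Unadjusted p was under 0.05 for 3 members, *Nefl*, *Ina* and *Kif5c*, and for 7.49% of genes. The log2 fold change (HFD NoDS over RC → HFD) was -0.28 (SE 0.105, adjusted p = 0.543) for *Nefl*, -0.18 (SE 0.0677, adjusted p = 0.557) for *Ina* and -0.14 (SE 0.0488, adjusted p = 0.526) for *Kif5c*, and for each of them 3 of 5 HFD NoDS libraries lay below every RC → HFD library. It was -0.10 for *Kif5a*, -0.12 for *Nefm*, -0.13 for *Nefh*, -0.09 for *Lynx1*, -0.16 for *Hpca*, -0.06 for *Kif5b* and 0.42 for *Nxph4*. Leaving out 1 library gave -0.276 to -0.0272 for *Nefm*, -0.162 to -0.0465 for *Kif5a*, -0.152 to -0.0433 for *Lynx1* and -0.182 to -0.0768 for *Nefh*. It gave -0.259 to -0.0958 for *Hpca*, -0.0863 to -0.00689 for *Kif5b* and 0.21 to 0.675 for *Nxph4*. The median over the members was -0.12, beside 0.00 over all genes.

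RC NoDS v RC → HFD compared mice given HFD for 7 days with mice kept on chow, and it shares the RC NoDS libraries with the contrast that chose the members, a choice that favours positive values here. *Kif5a* rose by 0.41 on the log2 scale (SE 0.0854, edgeR adjusted p = 0.121), with 6 of 6 RC → HFD libraries above all RC NoDS libraries. It was the 1 member of 10 that passed, beside 0.0392% of all genes. In reads, all RC → HFD libraries lay above all RC NoDS libraries for 3 members (*Kif5a*, *Nefm* and *Hpca*) and for 0.462% of genes. In CPM scaled with TMM factors this also held for *Ina*. Unadjusted p was under 0.05 for 8 members and 6.51% of genes. *Nefm* had a log2 fold change of 0.44 (SE 0.134, adjusted p = 0.574), *Hpca* 0.37 (SE 0.106, adjusted p = 0.471) and *Lynx1* 0.35 (SE 0.0837, adjusted p = 0.399), with 6, 6 and 5 of 6 RC → HFD libraries above every RC NoDS library. A p that misses the threshold does not show that values did not differ. The median over the 10 members, all of them positive, was 0.34, beside 0.00 over all genes. The others were 0.34 for *Nefl*, 0.25 for *Nefh*, 0.24 for *Ina*, 0.15 for *Kif5c*, 0.02 for *Kif5b* and 0.45 for *Nxph4*. Leaving out 1 library gave 0.191 to 0.6 for *Nxph4*. The *Kif5a* call was lost with limma-trend (adjusted p = 0.153), a robust dispersion (0.19) and the zero share as a covariate (0.52), and its adjusted p ran from 0.0307 to 0.656 over the libraries left out in turn. It was lost without RC NoDS replicate 1, 2 or 5, RC → HFD replicate 7, 8 or 12, HFD → RC replicate 14 or 17, or HFD NoDS replicate 19 or 21, while the log2 fold change stayed between 0.35 and 0.46.

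The remaining 3 pairs each share a group with the choosing contrast, which favours positive values in them too. In RC NoDS v HFD NoDS, edgeR called 0 of 10 members and 0.0783% of genes, DESeq2 and both limma fits called 0 members, and unadjusted p was under 0.05 for 3 members and 7.41% of genes. *Kif5a* was the 1 member with all HFD NoDS libraries above all RC NoDS libraries, as for 0.431% of genes (log2 fold change 0.31, SE 0.0887, adjusted p = 0.607). In HFD NoDS v HFD → RC, 0 of 10 members and 0.0705% of genes were called by edgeR, 0 members by the other tools, and 5 members and 7.93% of genes had an unadjusted p under 0.05. *Nefh* was the 1 member without overlap in reads, beside 0.36% of genes (0.24, SE 0.0856, adjusted p = 0.53). In CPM scaled with TMM factors, HFD → RC replicate 16 (87.5) lay below HFD NoDS replicate 20 (87.9). RC → HFD v HFD → RC gave 0 of 10 members and 0.00783% of genes by edgeR, 0 members by the other tools, 0 members and 0.282% of genes with every HFD → RC library higher, and 1 member and 5.35% of genes with an unadjusted p under 0.05. That member was *Nxph4*, at 2.08 (SE 0.495, adjusted p = 0.59), with 4 of 5 HFD → RC libraries above every RC → HFD library. Leaving out 1 library in turn gave 1.14 to 2.37, with 1.14 without HFD → RC replicate 13, and *Nxph4* was called without HFD → RC replicate 15 or 16. Over these fits 1 to 41 genes were called in all, against 1 with every library. The median over the members was 0.17 in RC NoDS v HFD NoDS (9 of 10 higher), 0.20 in HFD NoDS v HFD → RC (10 of 10 higher) and 0.03 in RC → HFD v HFD → RC (6 of 10 higher). With the zero share as a covariate, values in RC NoDS v HFD NoDS were 0.0889 for *Nefm* (0.32 without it), -0.00629 for *Nefh* (0.12), 0.0233 for *Ina* (0.06) and 0.25 for *Kif5a* (0.31). The rest were 0.0594 for *Nefl* (0.0632), 0.09 for *Kif5b* (-0.03) and 0.04 for *Kif5c* (0.01). *Lynx1* was at 0.20 (0.25), *Hpca* at 0.19 (0.21) and *Nxph4* at 0.91 (0.87). The zero shares of RC NoDS and HFD NoDS do not overlap, so the covariate cannot separate group from zero share there. Leaving out 1 library there gave 0.157 to 0.396 for *Nefm* and 0.0614 to 0.17 for *Nefh*. It gave 0.0164 to 0.0989 for *Ina* and 0.111 to 0.277 for *Hpca*.

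**Figure D2:**
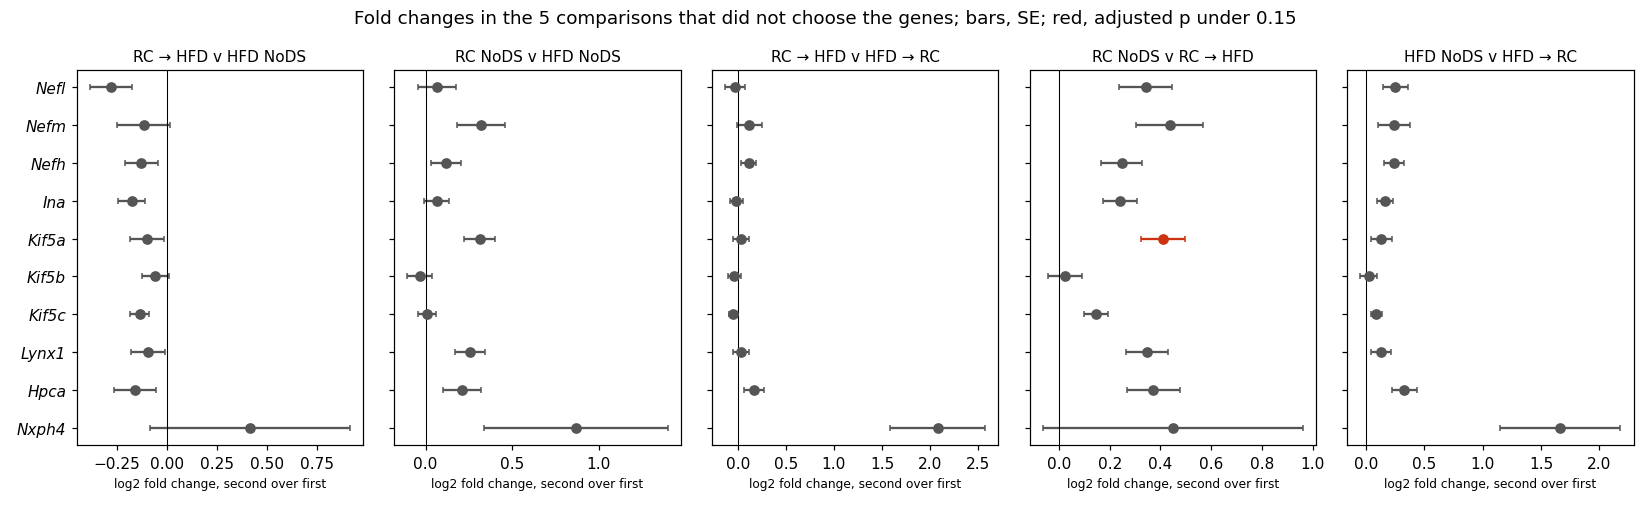
Log2 fold changes of the 10 genes in the 5 comparisons other than RC NoDS v HFD → RC (x axis, second group over first). Each panel has its own scale, with bars for the SE and red for an adjusted p under 0.15. Only RC → HFD v HFD NoDS shares no group with RC NoDS v HFD → RC, which chose the genes. *Kif5a* in RC NoDS v RC → HFD, at 0.41, is the only red point.

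The members were then compared with each other after removing each group's mean, over 21 libraries and 45 pairs with Benjamini-Hochberg adjustment over the pairs. *Nefm* and *Kif5a* moved together most closely within groups (r = 0.81, permutation p = 9e-05, adjusted 0.00405; rho = 0.79, permutation p = 0.00021, adjusted 0.00945), and r was 0.74 without the 2 libraries farthest from the median of the gene named first. *Kif5a* and *Lynx1* gave r = 0.70 (permutation p = 0.0014, adjusted 0.0315) and rho = 0.65 (permutation p = 0.00458, adjusted 0.0687), with r = 0.70 without the 2 farthest libraries. *Ina* and *Kif5a* gave r = 0.65 (permutation p = 0.00284, adjusted 0.0426) and rho = 0.66 (permutation p = 0.00264, adjusted 0.0594), with r = 0.69 without them. These 3 of the 45 pairs had an adjusted p of r under 0.05, and pairs with other genes were not tested. With library totals in place of TMM factors 1 pair did, *Nefm* and *Kif5a*. Among the 6 pairs of neurofilament subunits r was highest for *Nefm* and *Nefh* at 0.55 (permutation p = 0.0169, adjusted 0.141), with rho = 0.49 (permutation p = 0.0313, adjusted 0.201) and r = 0.38 without 2 libraries. It was lowest for *Nefl* and *Nefh* at 0.000543 (permutation p = 0.998, adjusted 0.998), with rho = -0.07 (permutation p = 0.783, adjusted 0.903) and r = -0.05 without 2 libraries. For *Nefm* and *Ina* r was 0.51, for *Nefl* and *Ina* 0.41, for *Nefl* and *Nefm* 0.34 and for *Nefh* and *Ina* 0.30, with adjusted p values of 0.199, 0.361, 0.443 and 0.464. The 9 pairs with *Kif5b* had a median r of -0.15.

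Over all 21 libraries, group differences included, the genes most like *Kif5a* were *Sparc* (r = 0.911), *Sparcl1* (0.896), *Pnkd* (0.891), *Adam11* (0.89) and *Chd3* (0.888), among 12702 genes without a count of 0. These ranks include the group differences that chose the members. *Nefm* ranked 6 in that order and *Lynx1* 12, whereas *Nefl* ranked 648 and *Kif5b* 7704. The genes most like *Nefm* were *Kif5a* (0.888), *Cacng2* (0.878), *Adam11* (0.871), *Sparc* (0.87) and *Thy1* (0.867). After removing each group's mean, r with *Kif5a* was 0.897 for *Sparc*, 0.898 for *Sparcl1*, 0.845 for *Pnkd*, 0.855 for *Adam11* and 0.859 for *Chd3*, each above the highest of any pair of members. These values are a description, and all of them share the libraries and their complexity.

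Myelin markers also differed in level between libraries. The 10 oligodendrocyte and myelin markers summed to 2389, 2773, 3491, 2482 and 3603 CPM in RC NoDS, to 2899 to 4253 in RC → HFD (median 3275), to 6659, 8900, 5248, 2966 and 4142 in HFD → RC, and to 3788, 6439, 3382, 6091 and 2908 in HFD NoDS. *Mbp*, a main protein of myelin, was the most abundant at 1912 CPM, and 0 of the 10 markers were at 0 in every library. In RC NoDS v RC → HFD, 10 of 10 were higher with 0 called and a median of 0.21, and in RC → HFD v HFD NoDS 10 of 10 were higher with 0 called and a median of 0.33. The same counts held with medians of 0.54 in RC NoDS v HFD NoDS, 0.56 in RC → HFD v HFD → RC and 0.26 in HFD NoDS v HFD → RC. In the choosing contrast 10 of 10 were higher with a median of 0.78, 4 of them had an adjusted p under 0.15, and *Mbp* was at 1.04. With the log2 summed level as a covariate, chosen after the data were seen, *Kif5a* in RC NoDS v RC → HFD was 0.36 (SE 0.0722, adjusted p = 0.0596), in RC NoDS v HFD NoDS it was 0.18, and in the choosing contrast 0.25. The other members with this covariate follow. In the choosing contrast *Nefm* was 0.25, *Nefl* 0.37, *Nefh* 0.33, *Ina* 0.17, *Kif5b* 0.01, *Kif5c* 0.13, *Lynx1* 0.28, *Hpca* 0.38 and *Nxph4* 2.07. RC NoDS v HFD NoDS gave *Nefm* 0.11, *Nefl* 0.10, *Nefh* 0.10, *Ina* 0.02, *Kif5b* -0.02, *Kif5c* 0.03, *Lynx1* 0.18, *Hpca* 0.10 and *Nxph4* 0.59. RC NoDS v RC → HFD gave *Nefm* 0.34, *Nefl* 0.36, *Nefh* 0.24, *Ina* 0.22, *Kif5b* 0.03, *Kif5c* 0.15, *Lynx1* 0.32, *Hpca* 0.33 and *Nxph4* 0.33. In RC → HFD v HFD NoDS the values with this covariate were -0.26 for *Nefl*, -0.24 for *Nefm*, -0.14 for *Nefh* and -0.20 for *Ina*. They were -0.17 for *Kif5a*, -0.05 for *Kif5b*, -0.13 for *Kif5c*, -0.13 for *Lynx1*, -0.22 for *Hpca* and 0.26 for *Nxph4*.

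Library complexity also differed. Of the 3116 genes with mean counts from 5 to 50 reads, the zero share (those without any read in a library) was 1.12%, 3.63%, 2.34%, 7.22% and 1.8% in RC NoDS, and 2.31% to 22.4% (median 12.1%) in RC → HFD. It was 9.24%, 20.5%, 5.68%, 15.1% and 31.9% in HFD → RC, and 16.2%, 32.9%, 14.6%, 9.88% and 7.7% in HFD NoDS. Every HFD NoDS library was thus above every RC NoDS library. With this share as a covariate *Kif5a* in RC NoDS v RC → HFD was 0.37 (SE 0.09, adjusted p = 0.52). In the libraries under 15%, chosen after the data were seen, it was 0.40 (adjusted p = 0.152), and in RC NoDS v HFD NoDS 0.21. Those were every RC NoDS library and RC → HFD replicates 7, 8 and 9. From the groups that began on HFD they were HFD → RC replicates 13 and 15 and HFD NoDS replicates 21, 23 and 24. For the other members in RC NoDS v RC → HFD, the log2 fold change with the zero-share covariate was 0.34 for *Nefl*, 0.29 for *Nefm*, 0.17 for *Nefh*, 0.21 for *Ina*, 0.17 for *Kif5c*, 0.31 for *Lynx1*, 0.36 for *Hpca*, 0.11 for *Kif5b* and 0.47 for *Nxph4*. In RC → HFD v HFD NoDS it was -0.28 for *Nefl*, -0.20 for *Nefm*, -0.17 for *Nefh*, -0.19 for *Ina* and -0.12 for *Kif5a*. The rest were -0.01 for *Kif5b*, -0.13 for *Kif5c*, -0.11 for *Lynx1*, -0.17 for *Hpca* and 0.44 for *Nxph4*. Libraries under 15% gave there -0.19 for *Nefl*, -0.22 for *Nefm*, -0.18 for *Nefh*, -0.24 for *Ina* and -0.19 for *Kif5a*. They gave -0.11 for *Kif5b*, -0.13 for *Kif5c*, -0.10 for *Lynx1*, -0.33 for *Hpca* and -0.14 for *Nxph4*.

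**Figure D3:**
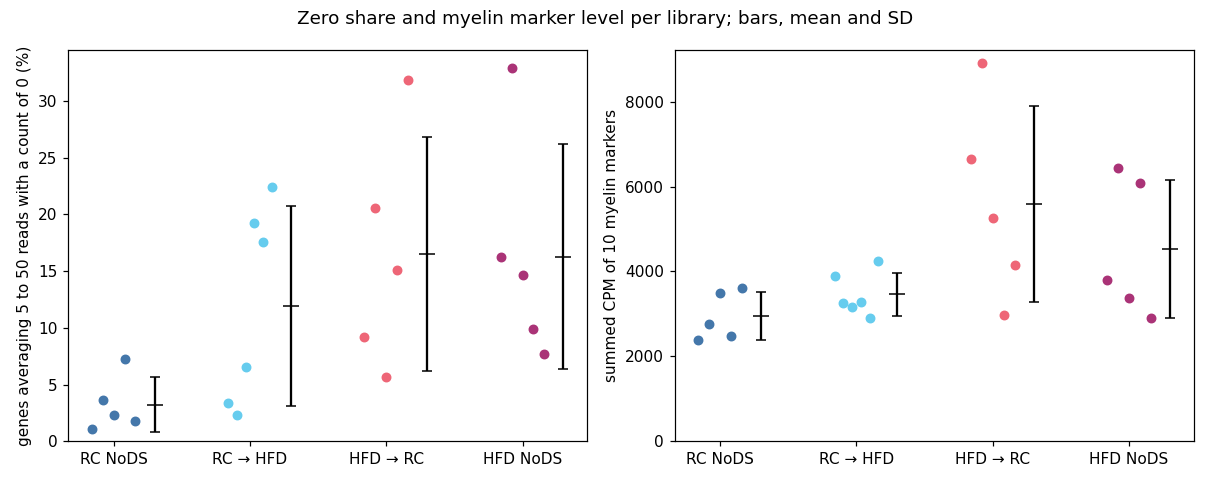
Zero share (left, %) and summed CPM of 10 myelin markers (right) in each library of the 4 groups, with bars for the mean and SD. RC NoDS has zero shares of 1.12% to 7.22%, and HFD → RC holds the highest myelin sum at 8900 CPM.

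Related genes were listed by role, and the members were left out of the counts that follow. In RC → HFD v HFD NoDS 0 genes of the 10 pathway lists passed. Of the other genes of intermediate filaments and the plakins that link them (*Dst* and *Plec*) 5 of 6 were higher in HFD NoDS (median 0.19), with *Gfap*, the astrocyte filament, at 1.02 (SE 0.209, adjusted p = 0.159), and *Dst* was the most abundant. Of 14 other kinesin genes 2 were higher (median -0.05), from *Kif17* at -0.21 to the light chain *Klc3* at 0.32. Of 16 dynein and dynactin genes, which serve transport towards the cell body, 3 were higher (median -0.04), from *Pafah1b1* at -0.20 to *Dctn2* at 0.10, with *Dynll2* the most abundant. Cargo adaptors of kinesin-1 were higher in 6 of 15 (median -0.03), from *Stx1a* at -0.16 to *Rhot2* at 0.10, with *Hap1* the most abundant.

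Microtubule genes were higher in 9 of 20 (median -0.02), from *Mtap2* at -0.19 to *Stmn4* at 0.30. Genes of the axon initial segment, the node and spectrin were higher in 1 of 18 (median -0.09), from the potassium channel *Kcnq3* at -0.35 to *Nfasc* at 0.09. *Spnb2* was the most abundant of these. Other prototoxin genes were higher in 3 of 7 (median -0.03), from *Lypd1* at -0.15 to *Lypd6* at 0.23, and nicotinic subunits in 0 of 3 (median -0.30), from *Chrna4* at -0.40 to *Chrnb2* at -0.02. Other neuronal calcium sensors were higher in 1 of 9 (median -0.17), from *Kcnip4* at -0.43 to *Kcnip3* at 0.01, and other neurexophilins and neurexins in 1 of 5 (median -0.11), with *Nxph1* at -0.18. The most abundant were *Ly6h* of the prototoxin genes, *Hpcal4* of the calcium sensors and *Nrxn2* of the neurexins. The median over all genes was 0.00.

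Across RC NoDS v RC → HFD, 0 related genes outside the members passed. The axon initial segment list was higher in 18 of 18 (median 0.22), microtubule genes in 19 of 20 (0.09), cargo adaptors in 12 of 15 (0.11), other kinesin genes in 12 of 14 (0.07), dynein and dynactin in 12 of 16 (0.03) and other intermediate filaments in 2 of 6 (-0.20). Other calcium sensors were higher in 8 of 9 (0.10), other prototoxin genes in 4 of 7 (0.04), nicotinic subunits in 3 of 3 (0.40), and other neurexophilins and neurexins in 3 of 5 (0.06), beside a median over all genes of 0.00. In the choosing contrast, the brain tubulin gene *Tubb4* was at 0.33.

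Cell type markers were counted in the same way. Pan-neuronal markers were higher in 11 of 12 in RC NoDS v RC → HFD (median 0.14) and in 1 of 12 in RC → HFD v HFD NoDS (median -0.04), with 0 called in both. For glutamatergic and GABAergic markers these counts were 4 of 5 (0.07) and 2 of 5 (-0.09), for astrocyte markers 5 of 8 (0.02) and 3 of 8 (-0.02), for microglia 4 of 8 (-0.03) and 7 of 8 (0.20), for endothelial and pericyte markers 8 of 8 (0.10) and 2 of 8 (-0.08), and for ependymal, tanycyte and choroid plexus markers 2 of 6 (-0.29) and 3 of 6 (0.14). The most abundant were *Uchl1* of the pan-neuronal markers, *Gad1*, *Slc1a2* of astrocytes, *Csf1r* of microglia, *Flt1* of endothelium and *Col23a1* of the ependymal list. Their part in the member values was not tested.

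For markers of brain regions the counts are given in the same order, and 0 genes were called unless named. Arcuate markers, with *Pomc* the most abundant, were higher in 2 of 6 and 5 of 6, and *Agrp* was at -1.24 (SE 0.188, edgeR adjusted p = 0.00154) in RC NoDS v RC → HFD. The medians of the arcuate list were -0.29 and 0.29. Ventromedial markers were higher in 4 of 5 (median 0.23) and 1 of 5 (-0.24), paraventricular and supraoptic markers in 0 of 3 (-0.09) and 3 of 3 (0.16), and posterior and supramammillary markers in 2 of 4 (0.00) and 2 of 4 (0.05). Thalamus markers were higher in 4 of 7 (0.11) and 3 of 7 (-0.08), and cortex, hippocampus and amygdala markers in 3 of 4 (0.19) and 1 of 4 (-0.14). Lateral hypothalamus markers were higher in 3 of 3 (0.90) and 2 of 3 (0.46), and in RC NoDS v RC → HFD *Hcrt* was at 1.46 (SE 0.531), *Pmch* at 0.90 (SE 0.377) and *Cartpt* at 0.43 (SE 0.125), with none of them called. The list of lateral hypothalamus genes holds *Cartpt*, which the arcuate nucleus also expresses, and *Cartpt* was called in RC NoDS v HFD NoDS (0.89, SE 0.131) and in HFD NoDS v HFD → RC (-0.73, SE 0.13), and *Hcrt* in RC NoDS v HFD NoDS (2.71, SE 0.557), where *Agrp* was also called at -0.97 (SE 0.197). The genes of that list, mostly through *Cartpt* at a mean of 238 CPM, summed to 246, 247, 193, 239 and 235 CPM in RC NoDS, to 304 to 401 in RC → HFD, to 282, 259, 207, 341 and 273 in HFD → RC, and to 365, 446, 447, 420 and 458 in HFD NoDS. The sum therefore follows *Cartpt* more than the other genes, 0 of the genes were at 0 in every library, and their part in the member values was not tested. The punches were aimed at the arcuate, ventromedial and paraventricular nuclei and away from the lateral hypothalamus, and the authors left out those in which *Agrp* and *Pomc* were not well above *Hcrt*. The paper reports *Hcrt* as similar across its groups by RNA-seq and RT-qPCR, whereas the call here came from edgeR.

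Some members share sequence with a neighbour on the opposite strand. In the NCBIM37 annotation *Nefl* (chr14:68701920-68707152, plus strand) lies inside the span of *Nefm* (chr14:68700647-68742903, minus strand), through a long *Nefm* transcript of 4 exons, and 1108 exon bases are common to both. *Ina* shares 456 exon bases with *Nt5c2*, *Kif5b* 142 with *Gm17036* and *Hpca* 57 with *Tmem54*. The library kit kept strand, but the sources used here do not state whether the counting used it, so these counts are uncertain to that extent. In the same orientation, no stretch of 100 bases of a member's transcripts occurs in the protein-coding transcripts of another gene.

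RefSeq promoters on GRCm38.p6 were at hand for 3 of the 10 members, *Kif5c*, *Hpca* and *Ina*, and all of them are shown. The motif GGGCGG was searched on both strands in the bases before the start and occurs in 32.7% of 32851 promoters. It was found 2 times before *Ina* (chr19:47014561-47014680, plus strand) and 0 times before *Kif5c* (chr2:49619166-49619285, plus strand). Before the 3 *Hpca* starts (minus strand) it was found 1 time (chr4:129121748-129121867), 2 times (chr4:129121304-129121423) and 0 times (chr4:129120173-129120292). The last 120 bases before each start are given 5′ to 3′ with the motif, or CCGCCC where it lies on the other strand, in capitals. A match is a description of letters only.
Kif5c: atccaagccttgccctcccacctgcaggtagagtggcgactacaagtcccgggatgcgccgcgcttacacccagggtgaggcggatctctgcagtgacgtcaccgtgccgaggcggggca
Hpca start 1: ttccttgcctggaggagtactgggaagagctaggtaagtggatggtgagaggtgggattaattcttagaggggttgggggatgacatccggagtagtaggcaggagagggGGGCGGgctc
Hpca start 2: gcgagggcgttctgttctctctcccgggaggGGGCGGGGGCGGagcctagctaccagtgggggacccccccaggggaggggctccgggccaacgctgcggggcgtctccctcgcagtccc
Hpca start 3: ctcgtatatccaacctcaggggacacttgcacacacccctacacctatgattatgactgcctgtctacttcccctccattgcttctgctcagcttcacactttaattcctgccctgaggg
Ina: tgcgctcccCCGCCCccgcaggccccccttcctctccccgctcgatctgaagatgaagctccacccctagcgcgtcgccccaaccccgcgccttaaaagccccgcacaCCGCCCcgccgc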

How the data were processed

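The authors deposited counts of reads per gene for 21 libraries. By the submitters' notes and methods, reads were aligned to mm9 with STAR 2.5.1b, ribosomal and mitochondrial reads were removed, and PORT re-sampled the libraries to a common depth before counting on Ensembl genes, with Picard 2.7.1 also listed. All 4 groups entered 1 model in edgeR 4.0.16 under R 4.3.3 (TMM factors, quasi-likelihood F-test), over the 12768 genes averaging at least 50 reads. A gene was called at a Benjamini-Hochberg adjusted p under 0.15. Overlap between groups was counted on unscaled reads. Alternatives were DESeq2 1.42.0, limma 3.58.1 (voom and trend), library totals, a filter at 5 reads, no filter, a robust dispersion, an adjusted p under 0.05, a zero-share covariate, 2 groups only and leaving out each library. A myelin covariate and a fit on libraries with zero shares under 15% were chosen after the data were seen. Correlations used 100000 permutations within groups, two-sided, with Python 3.11.15. Named genes were the members, the genes called in any of 24 lists, each list's most abundant gene, the highest and lowest of the pathway lists, and the 5 genes most like *Kif5a* and *Nefm*. Not every gene that the rule takes is named. The members and lists were chosen with earlier results of these data known. All per-sample columns were used (0 unused). The code was tested on simulated data.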

Additional observations from a re-analysis of the deposited data

Results flagged for a closer look

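Chance marks about 1 in 20 groups, and 3 of the 40 groups tested (10 genes in 4 groups) held a library far from the others. *Nefh* in HFD → RC replicate 17 had 1566 reads, while the other 4 libraries had 1435 to 1453. *Ina* in RC NoDS replicate 1 had 2997 reads, beside 3276 to 3389 in the others. *Kif5b* in HFD NoDS replicate 20 had 3404 reads, beside 4144 to 4217 in the others.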

How the results depend on the processing

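Among the results for single genes and pairs, 1875 kept their direction and side of the threshold under the alternatives, 92 were no longer past it, 18 came to pass it and 40 changed sign. The cause was not tested. In RC NoDS v HFD → RC, which chose the members and is given as a description, the 6 members called became 0 at an adjusted p under 0.05, 2 with limma-voom, 2 with limma-trend, 3 with library totals, 0 with the zero-share covariate, 0 with the myelin covariate, 8 in libraries with zero shares under 15% (where 508 of 12768 genes were called, against 36), and 0 to 7 leaving out 1 library (0 without RC NoDS replicate 1, 2 or 5 or HFD → RC replicate 13 or 14, and 1 without HFD → RC replicate 15). Genes called in all numbered 1 at an adjusted p under 0.05, 7 with limma-voom, 7 with limma-trend and 10 with library totals. They numbered 1 with the zero-share covariate, 3 with the myelin covariate and 1 to 205 leaving out 1 library. Among the libraries under 15%, HFD → RC held only replicates 13 and 15. In RC NoDS v RC → HFD the 1 member called became 0 at an adjusted p under 0.05, 3 with DESeq2 (96 genes called in all, against 5), 0 with limma-trend, 0 with a robust dispersion, 0 with the zero-share covariate, 4 with 2 groups only (24 genes), 0 in libraries with zero shares under 15%, and 0 to 2 leaving out 1 library (2 without RC NoDS replicate 3 or RC → HFD replicate 9). Here 4 genes were called in all at an adjusted p under 0.05, with limma-trend, with a robust dispersion and with the zero-share covariate. The total was also 4 in libraries with zero shares under 15%, and 4 to 11 leaving out 1 library. In RC → HFD v HFD → RC the 0 members became 0 to 1 leaving out 1 library, with 1 to 41 genes called in all, against 1. In HFD NoDS v HFD → RC the 0 members became 6 in libraries with zero shares under 15%, where HFD → RC held replicates 13 and 15 and 444 genes were called in all, against 9. With the zero-share covariate the log2 fold changes in RC NoDS v HFD → RC were 0.39 for *Kif5a*, 0.35 for *Nefm*, 0.24 for *Nefh*, 0.34 for *Lynx1*, 0.52 for *Hpca* and 2.56 for *Nxph4*. Correlated pairs went from 3 to 1 with library totals.

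Log2 fold changes that changed sign in RC → HFD v HFD → RC were, with the myelin covariate, 0.013 for *Nefl*, -0.0975 for *Nefm*, -0.107 for *Kif5a* and -0.0406 for *Lynx1*, in libraries under 15%, 0.142 for *Nefl* and 0.0532 for *Ina*, and with the zero-share covariate 0.0103 for *Kif5b*. Leaving out 1 library gave -0.119 to 0.0407 for *Nefl*, -0.0442 to 0.0194 for *Ina*, -0.0395 to 0.103 for *Kif5a* and -0.0208 to 0.0764 for *Lynx1*. For RC NoDS v HFD NoDS they were -0.00629 for *Nefh* and 0.0928 for *Kif5b* with the zero-share covariate, -0.012 for *Ina* and 0.0127 for *Kif5b* in libraries under 15%, and -0.00968 for *Kif5c* with limma-trend and -0.00823 with library totals. Leaving out 1 library gave -0.0277 to 0.109 for *Nefl*, -0.0552 to 0.0144 for *Kif5b* and -0.00746 to 0.0305 for *Kif5c*. *Kif5b* in RC NoDS v HFD → RC was 0.118 with the zero-share covariate, 0.0136 with the myelin covariate, 0.0406 in libraries under 15% and -0.0365 to 0.033 leaving out 1 library. *Kif5b* in RC NoDS v RC → HFD was -0.00286 with limma-trend, -0.00156 with library totals and -0.00776 to 0.0676 leaving out 1 library, and in HFD NoDS v HFD → RC it was -0.0287 to 0.054. *Nxph4* in RC → HFD v HFD NoDS was -0.14 in libraries under 15%. With library totals the correlation was -0.0511 for *Nefl* and *Nefh* and 0.000161 for *Kif5b* and *Nxph4*.

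The size of the *Nxph4* fold change depended on HFD → RC replicate 13, but its direction did not. Leaving out 1 library gave 1.59 to 2.82 in RC NoDS v HFD → RC and 0.72 to 1.95 in HFD NoDS v HFD → RC. No paired analysis was possible because no replicate numbers are shared between groups. Counts of *Nxph4* went down to 24 reads, lower than those of the other members. The part of the re-sampling to a common depth in its spread was not tested.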
